A study of Mus musculus with 2 samples.

Results

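The genes described here are 44 genes that encode integrins, the cell surface receptors for extracellular matrix, and the proteins of the basement membrane on which epithelial cells and early embryonic cells rest. They were chosen by gene family and role: 12 integrin alpha chains, 8 integrin beta chains, 9 laminin chains, 4 collagen IV chains, 7 other matrix proteins, the receptor dystroglycan, and 3 proteins that help collagen mature. All 44 had a row among the 43629 genes of the count tables. Polyadenylated RNA was sequenced from mouse embryonic stem cells (cells cultured from the inner cells of a blastocyst) of a 129/Ola background at passage 7. Both libraries, A and B, carry the genotype Dgcr8 knockout, made with paired CRISPR/Cas9 cuts according to the series title, and form the only group. Dgcr8 partners Drosha in the first cut of microRNA precursors. No library of unedited cells was analysed here, so the values are levels in knockout cells and not changes caused by the knockout. Whether the libraries come from separate cultures or clones is not stated in the labels, and the codes KO2 and d5 in the titles are not explained. Differences between these samples may therefore be technical. The p-values of the exact binomial test below set such differences against counting noise only and do not measure a spread between replicates.

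Integrins are dimers of an alpha and a beta chain that bind matrix proteins outside the cell and link them to actin inside it. Laminins are cross-shaped trimers of an alpha, a beta and a gamma chain. They form a first sheet at the cell surface through integrins and dystroglycan, and collagen IV forms a second network that nidogens and perlecan join to it. In the blastocyst, basement membrane lies between the epiblast and the primitive endoderm, and primitive endoderm and its descendants are known as strong producers of laminin and collagen IV.

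Library A held 27872396 counts and library B 30327146. Levels are given as CPM, counts per 1000000 counts of the library, and, to compare genes with each other, as RPKM, which is CPM per kilobase of the gene's longest transcript. A value with ± is a mean with its SD (n = 2 libraries). Dgcr8 itself held 1253 counts in A (45.0 CPM) and 1942 in B (64.0 CPM). Counts per gene do not show which exons were read, so this does not check the genotype. The embryonic stem cell marker Pou5f1, the gene of Oct4, reached 1805 CPM in A and 1542 in B.

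Of the 44 genes, 33 reached 1 CPM in both libraries, 2 only in B, and 9 in neither. Pooled, matrix genes were the more abundant side, but this did not hold for every role. The 20 laminin, collagen IV and other matrix genes had a median level of 14.1 RPKM, and the 20 integrin chains a median of 0.965 RPKM, averaged over the libraries. By role the median was 77.9 RPKM for other matrix genes, 6.71 for laminins and 1.53 for collagen IV. It was 3.70 for integrin beta chains and 0.510 for alpha chains, so that collagen IV lay below the beta chains. The median over the 14509 genes tested below that have a transcript length was 7.29 RPKM, a set that leaves out weakly expressed genes whereas the members include them. On the scale of log2(RPKM + 0.5) the integrin median lay below the matrix median by a difference of -3.30, which was -2.82 in A and -3.76 in B. With members under a mean level of 1 CPM left out, the difference was -2.15. The difference was therefore larger than the spread between the libraries, and part of it came from integrin chains that were nearly silent.

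**Figure D1:**
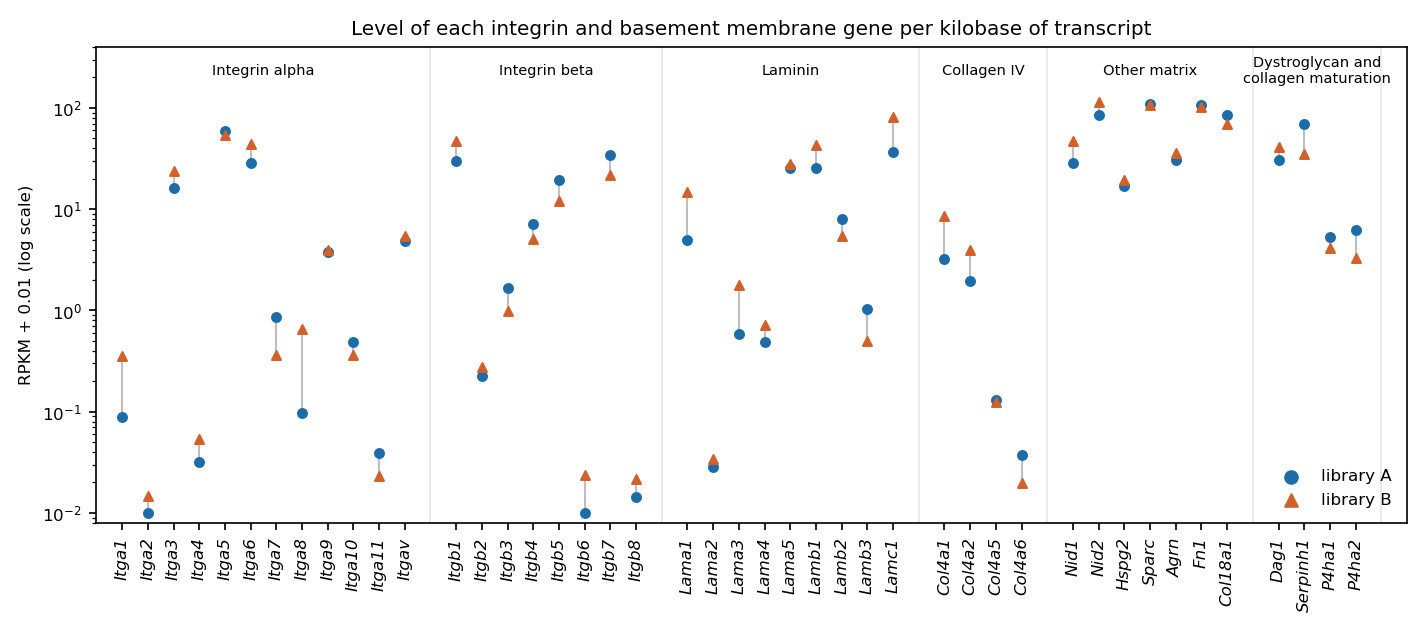
Level of each of the 44 genes in RPKM plus 0.01 on a log axis, with circles for library A, triangles for library B and a grey line joining them, grouped by role. All 7 other matrix genes lie above 16 RPKM in both libraries, whereas integrin chains range from 0 to 59.8 RPKM.

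Among the alpha chains, Itga5, Itga6 and Itga3 stood far above the rest. Itga5, whose product pairs with beta1 as the main fibronectin receptor, lies at chr15:103344286-103366763 (GRCm38, minus strand). It reached 264 CPM in library A, with a 95% Poisson interval of 258 to 270, and 240 CPM in library B, with an interval of 235 to 246, for a mean of 57.1 ± 3.78 RPKM. These values lay closer together than those of most members, and Itga5 was not called in the exact binomial test described below (adjusted p = 0.0962). Itga6, a chain of laminin receptors, had 124 CPM in A and 190 in B (36.4 ± 10.7 RPKM), and Itga3, another laminin receptor chain, had 78.9 and 116 CPM (20.1 ± 5.46 RPKM). Both lay above their A level in B. Itgav, which pairs with several beta chains and recognises the RGD motif, had 34.6 CPM in A and 38.1 in B. Itga9, a receptor chain for tenascin C and osteopontin, had 26.8 and 27.6 CPM. No other alpha chain of the 12 exceeded 5 CPM in either library.

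The other alpha chains were low. Itga7, a laminin receptor chain of muscle, had 96 counts in A and 43 in B, and Itga10, a collagen receptor chain, had 67 and 54. Itga1, a receptor chain for collagen IV and laminin, had 24 counts in A (0.861 CPM, interval 0.552 to 1.28) and 116 in B (3.82 CPM, 3.16 to 4.59). Itga8, which binds RGD proteins such as nephronectin, had 14 counts in A (0.502 CPM, 0.275 to 0.843) and 113 in B (3.73 CPM, 3.07 to 4.48). For both genes the counting intervals of the libraries did not overlap, and the level in A was under 1 CPM. Itga4 had 6 and 13 counts, Itga11 had 4 and 2, and Itga2 had 0 and 1. A count of 0 in A, with 3 counts as the floor, allows up to 0.108 CPM. Exons of Itga4 overlap those of Cerkl on the opposite strand over 8.04% of their bases, so its few counts are uncertain. Of the exon bases of Itga10, 33.5% are shared with Gm42957 on the same strand. Gm42957 had no row among the counted genes, so what this overlap did to the counts of Itga10 is not known.

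Grouped by ligand, the 3 alpha chains that bind laminin (Itga3, Itga6, Itga7) made up 39.9% of the summed alpha chain RPKM in A and 51.2% in B. The 3 RGD-binding chains (Itga5, Itga8, Itgav) made up 56.3% in A and 45.3% in B. The 4 collagen-binding chains (Itga1, Itga2, Itga10, Itga11) made up 0.507% and 0.539%. The laminin-binding share was thus larger in B and the collagen receptors stayed low in both. Which of the first 2 classes led in B depended on the length used: with the union of exons, a setting chosen after seeing the data, the RGD-binding chains led in both libraries, at 64.0% against 31.5% in A and 53.6% against 42.2% in B. Itga5 exceeded Itga6 2.08-fold in A and 1.24-fold in B per kilobase. With the union of exons, which lengthens Itga6 from 4310 to 9025 bases, these ratios were 3.90 and 2.32.

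Among the beta chains Itgb1, the common partner of most alpha chains, and Itgb7, a chain best known from lymphocytes, had the highest levels per kilobase. Itgb5 held a further 20.95% of the summed beta chain RPKM in A and 13.89% in B. Itgb1 lies at chr8:128685654-128733200 (plus strand) and had 114 CPM in A (110 to 118) and 180 in B (176 to 185). Itgb7 had 92.3 CPM in A (88.7 to 95.9) and 58.0 in B (55.3 to 60.8). Per kilobase Itgb7 was the higher in A, at 34.4 RPKM against 29.8 for Itgb1, and Itgb1 was the higher in B, at 47.3 against 21.6. The known partners of Itgb7 were low: Itga4 is given above, and Itgae had 3.19 CPM in A and 1.68 in B. Itgb5, a partner of alpha-v, had 63.6 CPM in A and 39.8 in B, and Itgb4, which pairs with alpha6 in hemidesmosomes, had 44.2 and 31.3. Itgb3, the other well-known partner of alpha-v, had 9.62 and 5.70 CPM. Itgb2, the leukocyte beta chain, had 18 counts in A and 24 in B, Itgb8 had 1 and 3, and Itgb6 had 0 and 2. The summed RPKM of the 12 alpha chains was 3.87 times that of Itgb1 in A and 2.82 times in B.

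**Figure D2:**
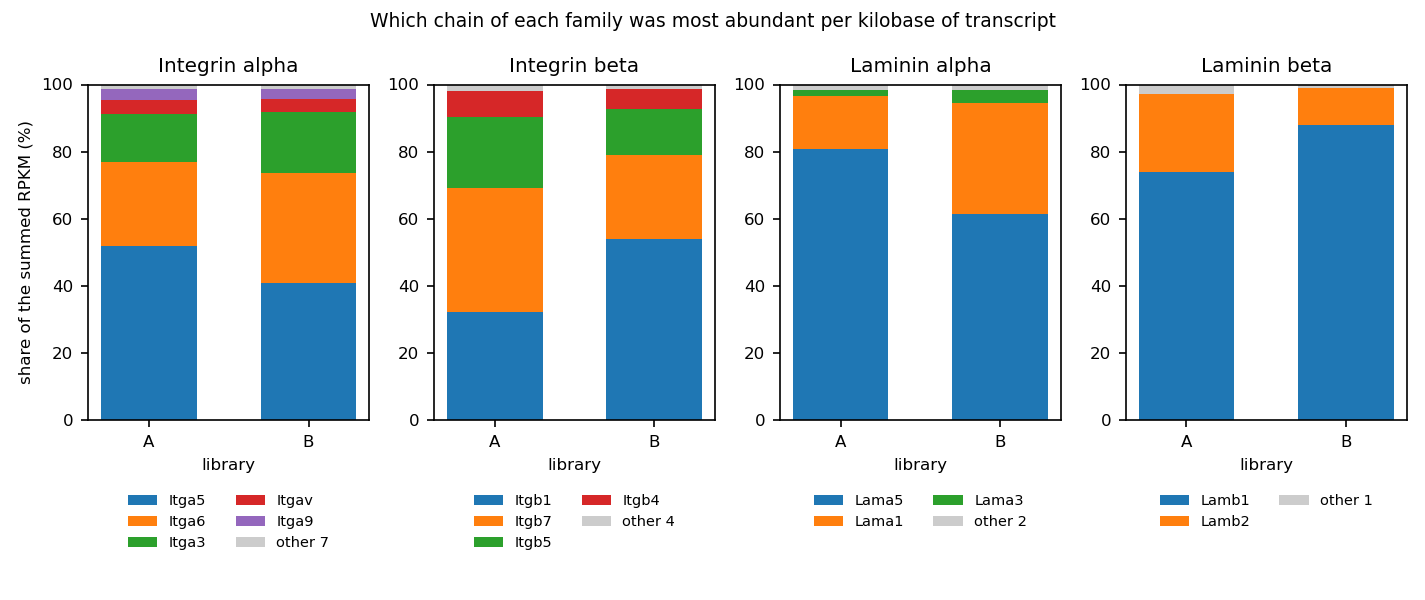
Share of each chain in the summed RPKM of its family (percent, bars from 0 to 100) in libraries A and B, for integrin alpha, integrin beta, laminin alpha and laminin beta chains. Chains with small shares are pooled in grey. Itgb1 holds 32.1% of the beta chain sum in A and 54.1% in B, and Lama5 holds 80.8% of the laminin alpha sum in A and 61.4% in B.

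The libraries were then compared gene by gene with an exact binomial test on the counts, scaled by TMM (a factor per library that sets most genes to an equal level), over the 14583 genes that reached 1 CPM in at least 1 library. Genes with a Benjamini-Hochberg adjusted p under 0.05 were called. The test asks whether these libraries differ by more than counting noise and says nothing of a condition. Among all tested genes 38.4% were called with the higher level in B and 38.4% with the higher level in A. Of the 44 members 35 were tested, and 21 of these (60.0%) were called higher in B, whereas 11 (31.4%) lay higher in A. With a minimum of 1.5-fold, 18.5% of all genes were called toward B and 19.4% toward A. Of the 35 tested members 12 were then called toward B and 5 toward A. Itga1 and Itga8 passed the filter only through B, which fixed their direction, and both are among the 21 and the 12. Over the 33 members at 1 CPM in both libraries, a setting added after seeing the data, 19 were called toward B and 11 toward A. Among all 13372 genes at that level the calls were 5258 toward B and 5034 toward A. For folds and log2 ratios between libraries 0.5 was added to each TMM-scaled CPM before taking log2, which understates the ratios of low genes.

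Against the general spread between the libraries no member was called. The edgeR exact test with a common dispersion, which treats that spread as noise (coefficient of variation 0.359), called 25 of 14583 genes (0.171%) and 0 members. At an unadjusted p under 0.05 this exact test found 846 of 14583 genes and 5 of 35 tested members. By the same exact test the 5 were Itga8 (p = 0.00077), Itga1 (p = 0.00763), Lama3 (p = 0.0255), Lama1 (p = 0.0285) and Col4a1 (p = 0.0475), each higher in B. The direction of Itga8 and Itga1 was fixed by the filter.

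Of 17 tested matrix genes 14 (82.4%) were called on the side of B and 3 (17.6%) on that of A, beside 38.4% of all tested genes in each direction. Their median log2 ratio of B over A was 0.52, where the median of all genes tested was -0.01. By kind, those called on the side of B were 6 of 8 laminin chains (median 0.71), both tested collagen IV chains (1.28) and 6 of 7 other matrix genes (0.32). Of 14 tested integrin chains 6 (42.9%) were called on the side of B and 5 (35.7%) on that of A, which is near the 38.4% of all genes and no result about integrins, with a median of 0.05. At 1.5-fold or more the integrin counts were 5 toward B and 2 toward A, beside 18.5% and 19.4% of all genes. The 5 include Itga1 and Itga8, whose direction was fixed by the filter. The integrin median of 0.05 changed sign with library totals in place of TMM (-0.04) and after correction for GC content and transcript length (-0.10). It was -0.16 over the 12 chains that reached 1 CPM in both libraries, a setting added after seeing the data that leaves out Itga1 and Itga8, with 4 called toward B and 5 toward A. Within the integrins, 5 of 9 tested alpha chains were called with more in B and 1, Itga7, with more in A (3 and 1 of 7 without Itga1 and Itga8), while 4 of 5 tested beta chains had more in A and 1, Itgb1, had more in B. The beta chain median of -0.57 moved to -0.14 after the GC and length correction. Itgav, called 1.17-fold higher in B, had a corrected log2 ratio of -0.46 in place of 0.23.

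**Figure D3:**
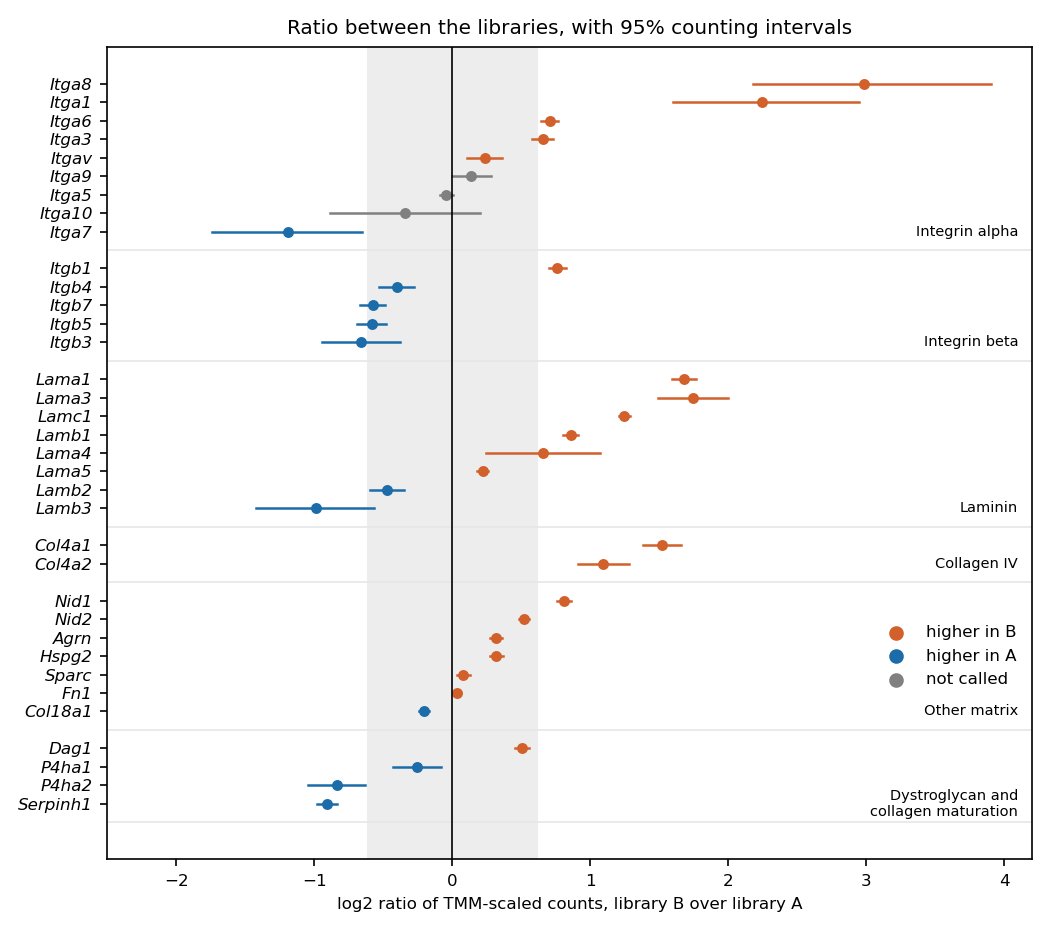
Log2 ratio of TMM-scaled counts, library B over library A, without pseudocount, for the 35 tested members, with bars for 95% exact binomial intervals that cover counting error only. Orange genes were called higher in B, blue ones higher in A and grey ones were not called. The shaded band is 1 SD (0.61) of the ratios of the 9537 genes whose mean level reached 10 CPM. To the right of the band lie the points of Itga8, Itga1, Itga6, Itga3, Itgb1, Lama1, Lama3, Lamc1, Lamb1, Lama4, Col4a1, Col4a2 and Nid1, and to the left those of Itga7, Itgb3, Lamb3, P4ha2 and Serpinh1.

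Itgb1 was 1.69-fold higher in B (adjusted p = 1.35e-126 by the exact binomial test), and 12.1% of all tested genes had a higher ratio. Itgb5 was 1.49-fold higher in A (adjusted p = 3.69e-27), as was Itgb7 (1.49-fold, adjusted p = 4.57e-38). After GC and length correction the log2 ratios were 0.40 for Itgb1, -0.21 for Itgb5 and -0.06 for Itgb7, so that the value of Itgb7 came near 0. The bases before the start sites of Itgb1 and Itgb5 are shown because these broadly expressed beta chains differed in opposite directions. They come from RefSeq on GRCm38.p6, chr8:128685404-128685653 (plus strand) and chr16:33829415-33829664 (plus strand), 5′ to 3′, and end at the base before the start site. Capitals mark GC boxes (GGGCGG on either strand, the motif bound by Sp1).
Itgb1: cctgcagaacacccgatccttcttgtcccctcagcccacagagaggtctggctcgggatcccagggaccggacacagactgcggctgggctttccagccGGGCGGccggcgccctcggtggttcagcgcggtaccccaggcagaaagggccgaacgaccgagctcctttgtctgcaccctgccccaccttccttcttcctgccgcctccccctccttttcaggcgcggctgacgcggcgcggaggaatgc
Itgb5: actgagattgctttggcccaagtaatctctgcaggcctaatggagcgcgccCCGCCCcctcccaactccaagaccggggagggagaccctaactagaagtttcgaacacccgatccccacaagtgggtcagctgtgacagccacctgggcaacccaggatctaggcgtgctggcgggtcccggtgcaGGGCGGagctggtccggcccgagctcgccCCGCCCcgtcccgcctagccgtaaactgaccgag
Itgb1 has 1 GC box in this stretch and Itgb5 has 3.

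Across the members 33 had an entry in the promoter table, with 39 start sites. Within the 250 bases before a start, a GC box on either strand was found at 53.8% of member starts and at 32.7% of all 32851 starts in the table. The motif CCAAT on either strand was found at 25.6% of member starts and 33.8% of all. TATAAA was found at 0 member starts and 12.4% of all, and AGATAA, a form of the motif bound by GATA factors, at 0 and 9.99%. The median GC content of these stretches was 62.0% for the members and 52.4% for all starts. These are matches of letters in a fixed window, and binding was not measured.

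Laminin chains differed widely in level, with a median of 6.71 RPKM over the 9 chains beside 7.29 over the tested genes. The trimer chains of the early embryo led. Lamc1, the gamma chain shared by most laminins, had 278 CPM in A (272 to 284) and 619 in B (610 to 628), for a mean of 58.8 ± 31.6 RPKM and a 2.37-fold difference. The gene lies at chr1:153218922-153332786 (minus strand). Lamb1, its usual beta partner, had 148 CPM in A against 252 in B, a difference of 1.81-fold (exact binomial test, adjusted p = 1.71e-215). Lama5, the alpha chain of laminin-511 and the most abundant alpha chain here, had 289 and 315 CPM (26.5 ± 1.64 RPKM). Lama1, the alpha chain of laminin-111, had 47.3 CPM in A (44.8 to 49.9) and 142 in B (138 to 146), a 3.18-fold difference. It lies at chr17:67697259-67822647 (plus strand). The counting intervals of the libraries were apart for Lama1, Lamb1 and Lamc1, all called higher in B. Among all tested genes 1.19% had a ratio above that of Lama1 and 3.55% above that of Lamc1. Lama5 exceeded Lama1 5.11-fold per kilobase in A and 1.86-fold in B.

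The remaining laminin chains were lower. Lamb2, the beta chain of muscle and kidney laminins, had 45.1 CPM in A and 30.5 in B, a fold of 1.38 toward A, so that Lamb1 exceeded Lamb2 3.20-fold per kilobase in A and 8.03-fold in B (2.02-fold and 5.06-fold with the union of exons as length). Lama3 and Lamb3 encode the alpha and beta chains of laminin-332, the laminin of skin epithelia, and they moved in opposite directions. Lama3 held 168 counts in A against 573 in B, a fold of 3.16 toward B, and Lamb3 held 140 against 72, a fold of 1.82 toward A. Lama4, of endothelial laminins, had 2.91 and 4.29 CPM, and Lama2, of muscle laminin, had 5 and 7 counts.

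Lamb1 is shown together with Nid1, whose product links laminin to collagen IV, because both genes were among the abundant matrix genes higher in B. The stretches come from RefSeq on GRCm38.p6, chr12:31265043-31265233 for Lamb1 and chr13:13437352-13437550 for Nid1, both on the plus strand and 5′ to 3′, and end where the first annotated GENCODE exon begins. Capitals mark GC boxes (GGGCGG or its complement) and CCAAT or its complement.
Lamb1: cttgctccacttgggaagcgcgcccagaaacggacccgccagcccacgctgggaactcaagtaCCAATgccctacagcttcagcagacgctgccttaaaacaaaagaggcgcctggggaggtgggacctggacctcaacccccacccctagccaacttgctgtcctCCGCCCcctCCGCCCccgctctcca
Nid1: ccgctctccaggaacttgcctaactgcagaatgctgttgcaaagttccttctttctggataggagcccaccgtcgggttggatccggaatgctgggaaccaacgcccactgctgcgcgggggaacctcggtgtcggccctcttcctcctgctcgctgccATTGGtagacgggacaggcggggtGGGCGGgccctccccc
Lamb1 has 2 GC boxes and 1 CCAAT here, and Nid1 has 1 of each.

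Collagen IV was represented by a single pair of chains. Col4a1 had 21.1 CPM in A (19.5 to 22.9) and 56.7 in B (54.0 to 59.4), and Col4a2 had 12.6 (11.3 to 14.0) and 25.3 (23.5 to 27.1). Col4a1 was 2.82-fold higher in B (exact binomial test, adjusted p = 2.4e-121) and Col4a2 2.09-fold (adjusted p = 1.43e-33). The genes lie head to head on chromosome 8: on GRCm38 Col4a1 runs from 11198423 to 11312826 on the minus strand and Col4a2 from 11312805 to 11449287 on the plus strand, so that their first exons overlap by 22 bases. Their chains assemble into a trimer with more alpha1 than alpha2. Per kilobase Col4a1 exceeded Col4a2 1.63-fold in A and 2.19-fold in B. The other head-to-head pair, Col4a5 and Col4a6 on the X chromosome, was nearly silent, with 22 and 23 counts for Col4a5 and 5 and 2 for Col4a6 in A and B. Col4a3 and Col4a4, outside the 44 genes, had 0 counts in A and 0 and 2 in B.

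The other matrix genes included the most abundant members. Sparc, a collagen-binding glycoprotein, had 251 CPM in A and 248 in B (109 ± 0.805 RPKM), and Fn1, fibronectin, had 882 and 848 CPM (104 ± 2.96 RPKM). Both were called higher in B after TMM scaling, by 1.06-fold and 1.02-fold, and with library totals alone the log2 ratios were -0.02 and -0.06, so that the direction flips with the scaling. Nid2, the second nidogen, had 414 CPM in A and 557 in B (99.6 ± 20.7 RPKM). The levels of Sparc, Fn1 and Nid2 per kilobase lay within the spread of Nid2. Exons of Nid2 overlap those of Rtraf on the opposite strand over 8.45% of their bases, and Rtraf held 4345 and 3970 counts, so part of the level of Nid2 is uncertain. Nid1 had 174 CPM in A against 285 in B, a fold of 1.75 toward B.

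Col18a1, the source of endostatin, had 481 CPM in A and 391 in B (77.9 ± 11.4 RPKM) and was the only other matrix gene called higher in A, by 1.15-fold. After correction for GC content and length its log2 ratio was 0.06 in place of -0.21. Perlecan (Hspg2), the large heparan sulfate proteoglycan of basement membranes, had 238 and 278 CPM, and agrin (Agrn), a related proteoglycan known from the nerve-muscle synapse, had 264 and 308. Each was called 1.25-fold higher in B. Dag1, which encodes both dystroglycan subunits, had 174 CPM in A and 232 in B (35.8 ± 7.18 RPKM) with a fold of 1.42 toward B (exact binomial test, adjusted p = 1.7e-78). Dag1 and Itgb1, receptors for the same laminins, lay closer per kilobase than their spread, at 35.8 and 38.5 RPKM with SDs of 7.18 and 12.4.

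The proteins that help collagen mature went the other way. Serpinh1 (Hsp47), the collagen chaperone of the endoplasmic reticulum, had 159 CPM in A (155 to 164) and 79.7 in B (76.6 to 82.9), a fold of 1.87 toward A (exact binomial test, adjusted p = 2.54e-141). P4ha2 and P4ha1 encode the catalytic subunits of prolyl 4-hydroxylase, which stabilises the collagen helix. P4ha2 had 19.0 CPM in A against 9.99 in B, a fold of 1.75 toward A, and P4ha1 had 21.4 against 16.8, a fold of 1.19 toward A. All 3 genes were therefore lower in B, the library in which Col4a1 and Col4a2 were higher. After GC and length correction the log2 ratios remained negative, at -0.41, -0.73 and -0.60 for Serpinh1, P4ha2 and P4ha1. The stretch before the start of Serpinh1 is shown as the counterpart of those of Lamb1 and Nid1. It comes from RefSeq on GRCm38.p6, chr7:99353240-99353489 on the minus strand, 5′ to 3′, with the GC box in capitals.
Serpinh1: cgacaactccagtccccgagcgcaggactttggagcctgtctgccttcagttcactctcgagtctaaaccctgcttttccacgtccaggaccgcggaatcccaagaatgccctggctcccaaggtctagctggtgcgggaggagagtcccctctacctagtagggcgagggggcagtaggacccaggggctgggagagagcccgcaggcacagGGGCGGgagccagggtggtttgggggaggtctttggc
It has 1 GC box, as the stretches of Nid1 and Itgb1 do.

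Other genes of the same pathways were taken from lists and compared in the same exact binomial test. That test called 38.4% of all tested genes in each direction. Of 12 other collagen-modifying enzymes 10 were tested, with 2 called toward B, 5 toward A and a median log2 ratio of -0.23. P4hb, the beta subunit of prolyl 4-hydroxylase, had 449 CPM in A and 429 in B, Ppib 213 and 155, and Colgalt1 119 and 128, while P4ha3 and P3h2 stayed under 1 CPM. Per kilobase P4hb exceeded the sum of P4ha1 and P4ha2 13.6-fold in A and 20.2-fold in B. Of 17 other basement membrane genes 10 were tested, with 2 called higher in B (among them Pxdn, the peroxidase that crosslinks collagen IV, at 17.9 and 40.1 CPM) and 5 higher in A, and a median of -0.32. Fbln1 was the most abundant at 98.4 ± 39.3 CPM, followed by Smoc1 at 49.6 ± 15.9, while Lamc3 stayed at 6 and 5 counts.

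Inside the cell, 17 of 18 integrin-linked proteins reached 1 CPM in both libraries, with 7 (41.2%) called toward B and 8 (47.1%) toward A, near the share of all genes (median 0.02). Parvb, a parvin that binds integrin-linked kinase, led with 229 ± 5.97 CPM, ahead of the talin gene Tln1 with 189 ± 34.9 and the kindlin gene Fermt2 with 163 ± 56.1. Lims2 lay under 1 CPM. All 12 genes of dystroglycan processing and its complex reached 1 CPM in both libraries, with 4 called toward B and 2 toward A (median -0.03), led by Utrn (113 ± 24.0), Dmd (50.2 ± 15.9) and Pomgnt1 (30.2 ± 0.950). Of the 6 integrin chains outside the 44 genes, 3 were tested and all 3 were called higher in A (median -0.68). Itgal had 12.4 and 9.36 CPM although its partner Itgb2 stayed under 1 CPM, Itga2b had 3.62 and 1.22, Itgad had 2 and 0 counts and Itgam 25 in each library. Among 11 other integrin ligands with a row, 5 were tested, with 4 called toward B and 1 toward A (median 0.35). Of these Thbs2 passed the filter only through B, which fixed its direction, and without it the counts were 3 and 1 with a median of 0.26. Spp1 (osteopontin), an RGD ligand, led with 778 ± 97.0 CPM, ahead of Icam1 with 124 ± 4.91 and Madcam1, a ligand of alpha4-beta7, with 3.45 ± 1.10. Vitronectin (Vtn) had 2 and 0 counts and tenascin C (Tnc) 6 and 10.

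Markers of other cell types moved with part of these results. Of 16 endoderm markers 10 were tested, with 7 called toward B, 3 toward A and a median log2 ratio of 0.98. The share of all tested genes called was 38.4% in each direction. Gata6, Sox7 and Plat passed the filter only through B, which fixed their direction. Over the 7 markers at 1 CPM in both libraries 4 were called toward B and 3 toward A, with a median of 0.65. Ratios after the GC and length correction were obtained for the members only, so its effect on this and the other lists is not known. The summed level of all 16 was 89.7 CPM in A and 207 in B, of which Lrp2, a receptor of visceral endoderm, made up 58.6 and 154. Gata6 had 19 and 71 counts, Sox17 had 5 and 19, Cubn 42 and 434, and Dab2 66 and 365. The 3 markers called toward A were Gata4 (7.10 and 4.91 CPM), Hnf4a (13.2 and 10.6) and Amn (2.30 and 1.22). The untested Thbd had 10 and 4 counts. No endoderm marker was at 0 in both libraries, and Afp had 1 and 0 counts. The summed level of the list was thus higher in the library in which Lama1, Lamc1, Col4a1 and Col4a2 were higher. Its part in those results was not tested, and more endoderm-like cells and more RNA per cell cannot be told apart in bulk RNA.

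Of 11 fibroblast markers only 4 were tested, with 0 called toward B, 3 toward A and a median of -0.67. Among all tested genes 38.4% were called in each direction. The summed level of the list was 48.8 CPM in A and 30.3 in B, of which Thy1 made up 31.4 and 21.9. Thy1 (26.7 ± 6.74 CPM), Pdgfrb (7.12 ± 4.99) and Twist1 (2.90 ± 0.143) led this list, and Lum and Postn had 0 counts in both libraries. The untested Col1a2 (2 and 7 counts) and Col3a1 (1 and 5) had more counts in B. Of 8 leukocyte markers 4 were tested, with 1 called toward B and 3 toward A (median -0.36, summed level 40.7 and 42.0 CPM). Cd68, a macrophage marker, had 14.8 CPM in A and 23.7 in B and was called toward B. Itgal, given above, Cd3e (223 and 167 counts) and Cd79a (110 and 49 counts) were called toward A, as Itgb7 was. Ptprc, the pan-leukocyte gene, had 1 and 5 counts and Lyz2 had 0 and 1, and Itgb2 and Itgam stayed under 1 CPM. The part of this list in the level of Itgb7 was not tested. Of the 7 pluripotency markers 3 were called toward B and 4 toward A (median -0.13), with a summed level of 4732 CPM in A and 4217 in B, led by Pou5f1, given above, Zfp42 (668 and 648 CPM) and Esrrb (638 and 642).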

How the data were processed

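Counts of polyadenylated RNA in 2 libraries of 1 group were used. Each deposited file gives, per Ensembl gene, a whole-number count that is not normalized, as its values show. Per the submitters' processing notes the tools were STAR 2.4.2a and featureCounts 1.4.5-p1 and the build mm10. For annotation, strand setting and multimapping reads nothing is given in the sources used here, so overlapping genes are uncertain. Symbols, positions and transcript lengths came from GENCODE M21 (GRCm38), which matched 42548 of 43629 identifiers. CPM, RPKM (longest transcript) and exact 95% Poisson limits were computed here, covering counting error only.

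Genes at 1 CPM in either library were compared with an exact two-sided binomial test (scipy 1.17.1) on TMM-scaled library sizes (edgeR 4.0.16, R 4.3.3; factors 1.03 and 0.968), adjusted over all 14583 genes. The binomial test was tried on simulated counts that held counting noise only, which is what it assumes. That simulation did not carry the spread between these libraries, so it does not show how the test behaves under it. Alternatives tried were size factors of DESeq2 1.42.0, unscaled totals, other filters, pseudocounts and lengths, an edgeR exact test, and subtracting the median ratio of genes in the same bin of GC content (10 bins) and length (5 bins). Every member and, of each of 10 lists, the 3 highest genes and up to 2 under 1 CPM are named, with a few others named after their values were seen. Members and lists were chosen with earlier results of these data known. Cyr61 had no row under that symbol. A gene that the naming rule selects is not reported here.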

Additional observations from a re-analysis of the deposited data

How the results depend on the processing

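The 21 members called higher in B and 11 higher in A became 22 and 11 with DESeq2 size factors, 19 and 13 with library totals, and 21 and 11 with no filter or with a filter on the mean. Over the 33 members at 1 CPM in both libraries, which leaves out Itga1 and Itga8, they were 19 and 11. With a minimum of 1.5-fold the 21 and 11 became 12 and 5 of 35 tested members, where 18.5% and 19.4% of all genes were called. Matrix genes higher in B were then 7 in place of 14 and higher in A 1 in place of 3. Integrin chains were 5 and 2 in place of 6 and 5. Those toward B include Itga1 and Itga8, whose direction was fixed by the filter. The edgeR exact test with a common dispersion called 0 members, 0 integrin chains and 0 matrix genes in either direction, and 14 and 11 genes of all. The difference between integrin and matrix medians of -3.30 was -4.82 in CPM, which is not per length, and -2.15 among members with a mean of 1 CPM or more, and ranged from -3.76 to -2.82 when each replicate was left out; it kept its direction in all 7 alternatives. The integrin chain shift of 0.05 reversed with library totals (-0.045), with GC and length correction (-0.10), and over chains at 1 CPM in both libraries (-0.16), a setting added after seeing the data, and the beta chain shift of -0.57 moved to -0.14 with the GC and length correction; other role shifts kept their sign. Sparc and Fn1 reversed with library totals (-0.015 and -0.058). After the GC and length correction Col18a1, Fn1, Itga5, Itga9 and Itgav changed sign (0.06, -0.13, 0.26, -0.22 and -0.46). The cause of these changes was not tested. The number of members at 1 CPM in both libraries ranged from 33 to 35 with a replicate left out. With a threshold of 1 RPKM in both libraries, Itga7, Itga10, Itgb3, Lama3, Lama4 and Lamb3 fell out. No paired analysis was possible because the series has 1 group. With 2 libraries, depth limits the members under 1 CPM most.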
